A study of Homo sapiens with 6 samples.

Results

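The genes described here encode 10 cell adhesion molecules of the immunoglobulin superfamily (IgSF). They are BCAM, ALCAM, MCAM, the nectins NECTIN1, NECTIN2 and NECTIN3, the junctional adhesion molecules F11R and JAM3, CADM1 and L1CAM. They were taken by symbol from the authors' deposited table, where all 10 had an entry among 15243 genes, and the list was chosen by their roles with the fold changes and p-values of that table in view. Those values are therefore a description and support nothing on their own.

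Ribosome footprint sequencing (Ribo-seq), which counts mRNA fragments covered by ribosomes, was done on NCI-H1299 cells, a lung carcinoma line of human origin without p53. The 3 shALDH18A1 samples carry a short hairpin RNA against ALDH18A1, the gene of the proline synthesis enzyme P5CS, and the 3 shControl samples, called puro in the series' design text, are the controls. Both groups are the same line in the same medium, and the labels give neither the hairpin sequence nor the time after its delivery. Nothing in the labels says that the samples of a group came from separate cultures, so the p-values are not taken to measure the spread between separate cultures. The comparison asks which mRNAs are translated differently when P5CS, studied in this series for binding RNA, is targeted.

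The values came from a finished comparison with no values per sample. For each gene it gives a normalized count averaged over libraries, a fold change on a log scale, the standard error of that change (SE, given after ±) and an adjusted p. The sources used here do not state which group is on top of the fold, nor whether footprints alone or their ratio to RNA were compared. The table's name carries the abbreviation DTEG, commonly used for genes of differential translation efficiency, but no RNA values were used here to check that reading. Higher and lower below are thus the sign in the table and not a direction between shALDH18A1 and shControl, and base 2 was taken from the layout of the columns. A gene counts as called where its adjusted p was under 0.05. In the authors' deposited table ALDH18A1 itself was not called (log2 fold change −0.19 ± 0.12, adjusted p = 0.173).

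Adhesion molecules of this superfamily stand in the plasma membrane with immunoglobulin-like domains outside the cell and a short tail inside it. They bind the same molecule or a relative on the neighbouring cell, or bind the matrix, and their tails recruit scaffold proteins that tie them to actin or to polarity complexes. As membrane proteins, they are made on ribosomes docked at the endoplasmic reticulum. In carcinoma cells they are known for roles in cell contact, migration and recognition by lymphocytes.

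The 10 genes went to both extremes. Of the 10, 6 were called higher, 1 was called lower and 3 were not called in the authors' deposited table. Over all genes 58.4% were called, 28.9% higher and 29.4% lower, and since the fold changes were known when the genes were listed, nothing is read from the difference. Their median log2 fold change was 0.97, beside 0.02 over all genes. The order from the top was BCAM, ALCAM, NECTIN1, JAM3, NECTIN2, NECTIN3, CADM1, F11R, L1CAM and MCAM. The intervals of neighbours in this order overlapped except for BCAM over ALCAM, for JAM3 over NECTIN2, and for L1CAM over MCAM. Overlap of intervals does not by itself show that values are alike, and differences between neighbours were not tested. BCAM and MCAM lay 7.62 apart on the log2 scale.

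**Figure D1:**
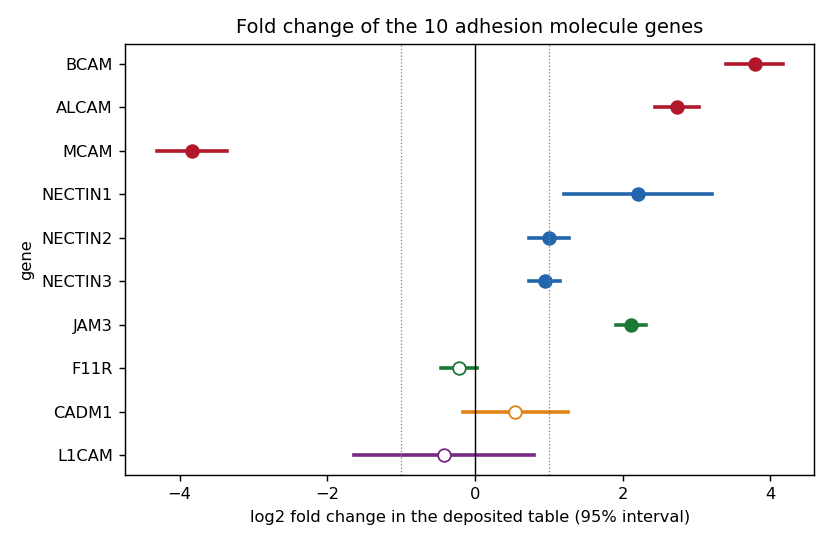
Log2 fold change of each of the 10 genes in the authors' deposited table (x axis), with its 95% interval as a line and 1 gene per row, coloured by family. Filled circles had an adjusted p under 0.05, open circles did not, and dotted lines mark a log2 fold change of 1 either way. BCAM at 3.79 and MCAM at −3.84 lie farthest from 0, and the intervals of F11R, CADM1 and L1CAM cross 0.

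BCAM, MCAM and ALCAM share the same domain layout outside the cell, and they held the 3 largest fold changes of the 10 genes. The bases just upstream of their annotated starts are shown first, because these genes carry the largest changes and went in opposite directions. The sequences are RefSeq's on GRCh38.p14, read 5′ to 3′ on the gene's own strand, and end at the base before the annotated start. Capitals mark the GC box GGGCGG on either strand, which is the binding sequence of SP1-type factors.
BCAM, chr19:44808959-44809058, plus strand: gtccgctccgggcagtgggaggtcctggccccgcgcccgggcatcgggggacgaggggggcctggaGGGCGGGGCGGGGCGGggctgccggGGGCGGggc
ALCAM, chr3:105366809-105366908, plus strand: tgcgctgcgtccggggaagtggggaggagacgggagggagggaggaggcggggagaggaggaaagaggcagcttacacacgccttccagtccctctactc
MCAM, chr11:119317131-119317230, minus strand: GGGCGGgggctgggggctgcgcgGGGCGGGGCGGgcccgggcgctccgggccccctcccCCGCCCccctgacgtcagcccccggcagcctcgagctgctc
BCAM and MCAM, the highest and the lowest of the genes, both showed 4 GC boxes in these 100 bases, counting overlapping matches, and ALCAM none. Their G and C content was 86% for BCAM, 87% for MCAM and 66% for ALCAM. The footprints were not read from these bases, and a match is a description of the letters only.

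Over the 250 bases upstream of the start, sequences were at hand for 6 of the genes, namely BCAM, MCAM, ALCAM, L1CAM, NECTIN2 and NECTIN3. All 6 held at least 1 GC box, as did 64.7% of 11930 protein-coding genes of the table with such a sequence. BCAM, MCAM and NECTIN3 each held 5, NECTIN2 held 3, L1CAM 2 and ALCAM 1. On either strand, none of the 6 held the TATA element TATAAA, found in 6.30% of all the windows, or the box CCAAT, found in 35.1%. Nor did they hold the E-box CACGTG (8.71% of all windows), the AP-1 sequence TGANTCA (3.91%) or the ETS core CCGGAAG (14.7%). L1CAM stood apart with 5 CpG pairs in the window, against 19 to 27 in the others and a median of 20 over all windows. An mRNA that begins with a C and then pyrimidines, the start that marks growth-regulated translation, was taken as a C followed by 4 pyrimidines. It was seen at the annotated start of none of the 6 and of 5.10% of the 11930 genes.

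BCAM, the Lutheran blood group protein and a receptor for laminin chains that contain the alpha5 subunit, was the highest. It lies on chromosome 19 from 44809059 to 44821421 in GRCh38 (Entrez ID 4059). In the authors' deposited table its log2 fold change was 3.79 ± 0.20, a 13.8-fold difference with a 95% interval of 10.6 to 18.0, at a mean normalized count of 724 (adjusted p = 6.40e-80). It ranked 69 from the top of 15243 genes. Of the 500 genes nearest to it in mean count, 0% had a fold change of larger size. LAMA5, the laminin subunit that it binds, was called higher by a much smaller amount, at 0.25 ± 0.07 in the authors' deposited table.

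ALCAM (CD166), which binds itself and the lymphocyte receptor CD6 and reaches actin through ezrin-type linkers, was also higher. It lies on chromosome 3 from 105366909 to 105576900 (Entrez ID 214). In the authors' deposited table it stood at 2.73 ± 0.15, a 6.65-fold difference with an interval of 5.41 to 8.17, at a mean normalized count of 174 (adjusted p = 2.94e-70). Its rank from the top was 294.

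MCAM (CD146), a melanoma and endothelial adhesion molecule that also acts as a coreceptor of VEGF receptor KDR, was the only gene of the 10 called lower. It lies on chromosome 11 from 119308529 to 119317130 (Entrez ID 4162). The authors' deposited table gave it −3.84 ± 0.24, a 14.3-fold difference, at a mean normalized count of 358 (adjusted p = 7.68e-55). A lower fold change was listed for 45 genes, and none of the 500 genes nearest in mean count had one of larger size. Of its known partners, KDR (−1.72 ± 0.28) and galectin 3, LGALS3 (−0.75 ± 0.17), were called lower in the authors' deposited table. The laminin subunit gene LAMA4, another partner of MCAM, was called higher at 4.18 ± 0.64 in the authors' deposited table, on a mean normalized count of 10.2. PDGFRB (1.59), LGALS1 (0.92) and WNT5A (1.82), also listed among outside partners, were called higher as well in the authors' deposited table. The partners thus went both ways.

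MCAM also marks endothelial cells and pericytes, so the markers of those cells are given beside it. Of 7 endothelial markers, 6 had an entry, with mean normalized counts from 1.56 for PECAM1 to 35.3 for KDR in the authors' deposited table, and KDR was the only one called. Of 6 fibroblast and pericyte markers, 5 had an entry, at 0.924 to 26.9, with PDGFRB called higher (1.59 ± 0.30) and RGS5 called lower (−0.97 ± 0.40) in the authors' deposited table. All samples carry the label of the same cell line, and any link of these markers to the MCAM value was not tested.

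The nectins bind each other across epithelial and neuronal contacts and hold the actin-binding scaffold afadin at their tails. NECTIN1 is also an entry receptor of herpes simplex virus, and NECTIN2 is a ligand of the lymphocyte receptors DNAM-1 and TIGIT. All 3 were called higher in the authors' deposited table. NECTIN1 (chromosome 11, 119638098 to 119729200, Entrez ID 5818) had the largest and least precise value, at 2.21 ± 0.51 in the authors' deposited table (adjusted p = 4.23e-05). Its interval ran from 1.21 to 3.21 on the log2 scale at a mean normalized count of 25.1. NECTIN2 (chromosome 19, 44846297 to 44889223, Entrez ID 5819) had the largest count of the 10 genes, 6267, and in the authors' deposited table it stood at 0.997 ± 0.14 (adjusted p = 3.60e-12). NECTIN3 (chromosome 3, 111071816 to 111194170, Entrez ID 25945), the preferred partner of both other nectins, was close to it at 0.94 ± 0.11 in the authors' deposited table (adjusted p = 2.74e-18), with a mean normalized count of 273.

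Near-equal values for NECTIN2 and NECTIN3 came from very different counts, and their intervals of 0.73 to 1.27 and 0.74 to 1.15 almost coincide. The interval of NECTIN1 overlaps that of NECTIN2 and starts just above the end of that of NECTIN3. Neither NECTIN2 nor NECTIN3 carries the authors' own mark of up, which needs a log2 fold change above 1 and an unadjusted p under 0.05, and NECTIN2 misses it by the third decimal. By those marks 4 of the 10 genes were up (BCAM, ALCAM, NECTIN1 and JAM3), 1 was down (MCAM) and 5 were stable, while 24.4% of all genes were marked, 15.2% up and 9.24% down.

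AFDN, which encodes the afadin scaffold shared by the nectins, was not called in the authors' deposited table, at 0.17 ± 0.09 (adjusted p = 0.0867). The nearest relatives of the nectins were not called either. PVR, the poliovirus receptor, stood at 0.18 ± 0.12 and NECTIN4 at −1.25 ± 0.70 in the authors' deposited table. The mean normalized count of NECTIN4 was 5.58 there. AFDN, PVR and NECTIN4 were named for their relation to the nectins with their values known.

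The junctional adhesion molecules differed from each other. JAM3 (JAM-C), which binds JAM2 and the leukocyte integrin subunit ITGAM, lies on chromosome 11 from 134069072 to 134152001 (Entrez ID 83700). In the authors' deposited table its log2 fold change was 2.11 ± 0.10, a 4.33-fold difference with an interval of 3.78 to 4.96, at a mean normalized count of 284 (adjusted p = 7.68e-96). It had the smallest SE of the 10 genes and the largest ratio of fold change to SE, which placed it 86 of 15243 genes by that ratio. F11R (JAM-A, on chromosome 1 from 160995211 to 161021152, Entrez ID 50848), a tight junction molecule that recruits the polarity protein PARD3, was not called in the authors' deposited table (−0.21 ± 0.12, adjusted p = 0.127). With a mean normalized count of 490, its interval of −0.45 to 0.03 bounds any change at 1.37-fold lower and 1.02-fold higher.

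JAM2, the third junctional adhesion molecule, was not called in the authors' deposited table, at −0.08 ± 0.45 on a mean normalized count of 49.2. Its interval is wide enough to hold the value of F11R but not that of JAM3. Among partners of the family, PARD3 was lower at −0.94 ± 0.10 and the junction scaffold TJP1 (ZO-1) lower at −1.43 ± 0.08 in the authors' deposited table. ITGAM was lower still, at −4.39 ± 0.21 in the authors' deposited table, opposite in sign to JAM3. Other scaffold and integrin genes listed went the other way. CASK (1.36), MPDZ (0.47) and the integrin subunit gene ITGB2 (1.09) were called higher in the authors' deposited table.

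CADM1 (SynCAM1 or TSLC1), a cell contact molecule and lung tumour suppressor that binds the scaffold CASK, was not called. It lies on chromosome 11 from 115169236 to 115504415 (Entrez ID 23705). In the authors' deposited table it stood at 0.55 ± 0.36 (adjusted p = 0.191), with an interval of −0.17 to 1.26 at a mean normalized count of 44.1. That interval leaves room for a 2.39-fold difference, so a change of the size seen in NECTIN2 and NECTIN3 lies within it. Its relative CADM4 was called higher, at 1.62 ± 0.12, and CASK too, at 1.36 ± 0.12, in the authors' deposited table. Of other listed scaffold genes, MPP3 was called higher (1.89), MPP2 lower (−0.81) and EPB41L3 was not called (1.03) in the authors' deposited table. CADM2 had 4.14 mean normalized counts and was not called in the authors' deposited table, at −0.12 ± 0.61.

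L1CAM, a neural adhesion molecule linked to invasion in carcinomas, was near the floor of the measurement. It lies on chromosome X from 153861514 to 153886173 (Entrez ID 3897) and had a mean normalized count of 6.60, at the 14.2 percentile of all genes. Its log2 fold change in the authors' deposited table was −0.42 ± 0.62 (adjusted p = 0.588), and the interval of −1.63 to 0.80 allows either sign. Among the 500 genes nearest in mean count 39.2% were called, against 67.2% to 74.8% around the 7 genes at or above the median abundance. Of the L1CAM partners, the integrin subunits ITGAV (−0.57 ± 0.11) and ITGA5 (−0.42 ± 0.08) were called lower in the authors' deposited table. ITGB3 was lower at −3.35 ± 0.14, while NRP1 (0.59 ± 0.30) and ITGB1 (−0.25 ± 0.15) were not called in the authors' deposited table. The receptor genes EGFR (2.21) and FGFR1 (1.30), also listed among outside partners, were called higher in the authors' deposited table.

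**Figure D2:**
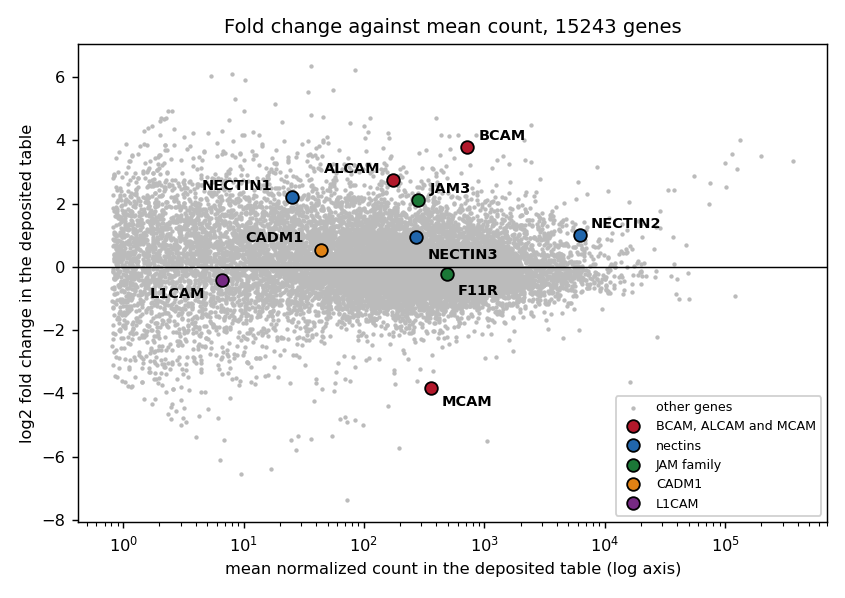
Log2 fold change (y axis) against mean normalized count (x axis, log scale) in the authors' deposited table, with 1 grey point per gene for 15243 genes and the 10 adhesion molecule genes in colour by family. BCAM and MCAM lie outside the main cloud at counts of 724 and 358, and L1CAM lies inside it at a count of 6.60.

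The precision behind these values was uneven beyond what the counts give. The SE of MCAM was 1.93 times, that of BCAM 1.80 times and that of NECTIN1 1.60 times the median SE of the 500 genes nearest to each in mean count. CADM1 (1.43 times) and NECTIN2 (1.42 times) were also above it. ALCAM (0.975 times), F11R (1.03 times) and L1CAM (1.06 times) lay close to it, whereas JAM3 (0.760 times) and NECTIN3 (0.791 times) were more precise than their neighbours. Without values per sample, no library can be named as the source of a large SE. Mean normalized counts are given for the depth behind each value and are not levels per length, since no coding lengths were at hand.

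**Figure D3:**
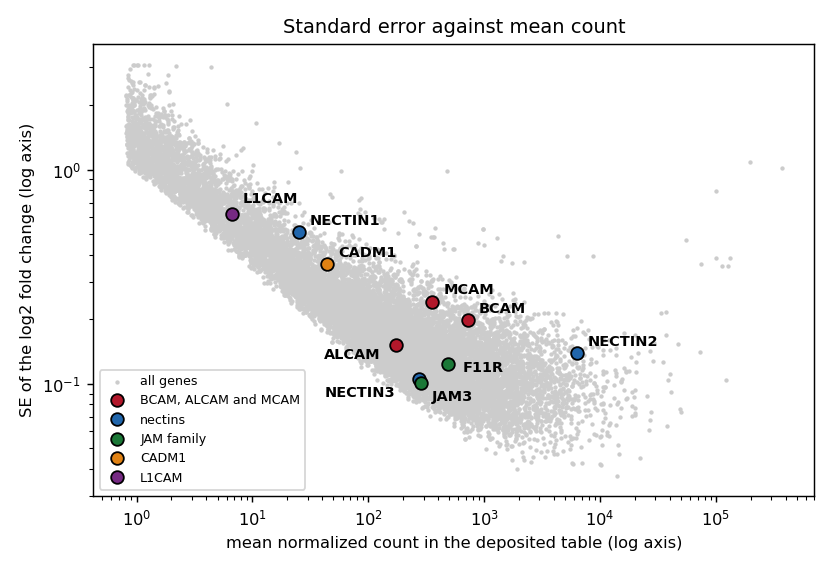
SE of the log2 fold change (y axis, log scale) against mean normalized count (x axis, log scale) in the authors' deposited table, with all genes in grey and the 10 adhesion molecule genes in colour by family. MCAM, BCAM, NECTIN1, CADM1 and NECTIN2 sit in the upper part of the cloud at their counts, and JAM3 and NECTIN3 in the lower part.

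Several of the genes lie on the same chromosome. CADM1, MCAM, NECTIN1 and JAM3 all lie on chromosome 11, with MCAM and NECTIN1 only 321 kb apart, and these neighbours had opposite signs. ALCAM and NECTIN3, both called higher, lie 5.49 Mb apart on chromosome 3. BCAM and NECTIN2 lie 24.9 kb apart on chromosome 19 with 0 annotated protein-coding genes between them, and both were called higher, at 3.79 and 0.997. Within 250 kb either side of BCAM, 11 other genes of the table counted 4 higher, 2 lower and 5 not called, with fold changes from −1.29 to 0.997 on the log2 scale. Around MCAM, 12 genes counted 4 higher, 4 lower and 4 not called. No neighbour reached the size of either gene, the extremes around MCAM being −2.06 and 2.45.

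Some annotated spans overlap other genes, and no source used here says whether strand was used in counting. JAM3 overlaps the protein-coding gene NCAPD3 by 1889 bases, and NCAPD3 was called higher by 0.44 ± 0.10 in the authors' deposited table, well under the 2.11 of JAM3. The largest overlap of JAM3 is with a long noncoding RNA over 6557 bases, and it also overlaps a pseudogene over 2073 bases and a small nucleolar RNA gene over 76. MCAM overlaps a microRNA gene over 63 bases. ALCAM, L1CAM, NECTIN1 and CADM1 also overlap long noncoding RNAs, including the annotated antisense genes L1CAM-AS1, NECTIN1-AS1 and CADM1-AS1. None of these noncoding genes and pseudogenes had an entry in the table, so reads shared with them cannot be set apart. BCAM, NECTIN2, NECTIN3 and F11R overlap no annotated gene.

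Other members of the superfamily were counted beside the 10 genes. Of 52 other IgSF adhesion genes listed for comparison, 38 had an entry, and 22 were called higher, 2 lower and 14 not called in the authors' deposited table. That is 57.9% higher and 5.26% lower, beside 28.9% and 29.4% over all genes, and the median was 0.98. This list and those that follow were drawn up with results of the table known, so their counts are descriptions with no test. BSG (basigin, a partner of lactate transporters) was higher at 2.06 ± 0.12 on a mean normalized count of 15987 in the authors' deposited table. CADM4 and KIRREL2, a nephrin relative (2.87 ± 0.21), had the next smallest p in the authors' deposited table. The 2 lower genes were NRCAM, of the L1 family (−1.20 ± 0.23), and IGSF11 (−1.59 ± 0.54) in the authors' deposited table, on mean normalized counts of 33.3 and 8.32. MCAM, at −3.84, was thus lower than any of these 38 genes, whose lowest value was −1.59.

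Ligands, receptors and other outside partners of the 10 genes went both ways. Of 31 listed, 25 had an entry, with a median of 0.62. Of these, 13 (52%) were higher, 7 (28%) lower and 5 not called, beside 28.9% higher and 29.4% lower over all genes. The laminin gene LAMB1 (1.73 ± 0.08), EGFR (2.21 ± 0.13) and the semaphorin and VEGF coreceptor gene NRP2 (3.26 ± 0.20) had the smallest p among the higher ones in the authors' deposited table. Among the 7 lower ones, ITGB3, ITGAM and KDR, given above, had the smallest p.

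Proteases that shed adhesion molecules, with the gamma-secretase that cuts the remaining stubs, had a median of 0.26. Of 15 with an entry, 7 (46.7%) were higher, 5 (33.3%) lower and 3 not called, beside 28.9% and 29.4% over all genes. ADAM15 (1.07 ± 0.09), MMP14 (1.04 ± 0.09) and the gamma-secretase subunit gene APH1A (0.69 ± 0.10) were higher in the authors' deposited table. ADAM10, which sheds several of the molecules described here, was also higher at 0.75 ± 0.11, and its relative ADAM17 was not called in the authors' deposited table, at 0.07 ± 0.13. NCSTN, the gamma-secretase subunit nicastrin, was lower at −0.57 ± 0.10, as were MMP9 (−1.58 ± 0.28) and MMP2 (−2.39 ± 0.51) in the authors' deposited table, the matrix proteases on mean normalized counts of 22.8 and 12.0.

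Genes listed as scaffolds and linkers inside the cell went both ways. Of 29 scaffold and linker genes, all with an entry, 7 (24.1%) were higher, 14 (48.3%) lower and 8 not called, beside 28.9% higher and 29.4% lower over all genes. Their median was −0.16, with 13 values above 0 and 16 below. The spectrin genes SPTBN1 (1.53 ± 0.08) and SPTAN1 (0.61 ± 0.05) were called higher, like CASK, in the authors' deposited table. TJP1, the small GTPase gene RAP1B (−1.52 ± 0.12) and the actin linker gene MSN (−0.71 ± 0.06) were lower in the authors' deposited table. The related linkers EZR (−0.57 ± 0.06) and RDX (−0.46 ± 0.09) were lower as well in the authors' deposited table, so all 3 members of the ezrin, radixin and moesin family were called lower while ALCAM, which ezrin connects to actin, was called higher.

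The cadherins and catenins, the other main adhesion system, gave a median of 0.21. Of 12 with an entry, 4 (33.3%) were higher, 3 (25%) lower and 5 not called. The share called in either direction was 58.3%, beside 58.4% over all genes. CDH4 (3.997 ± 0.41), CDH24 (1.49 ± 0.18) and JUP (0.72 ± 0.23) had the smallest p among those called higher in the authors' deposited table. The catenin genes CTNNA1 (−0.61 ± 0.04) and CTNND1 (−0.45 ± 0.08) and the N-cadherin gene CDH2 (−0.26 ± 0.10) were lower in the authors' deposited table.

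**Figure D4:**
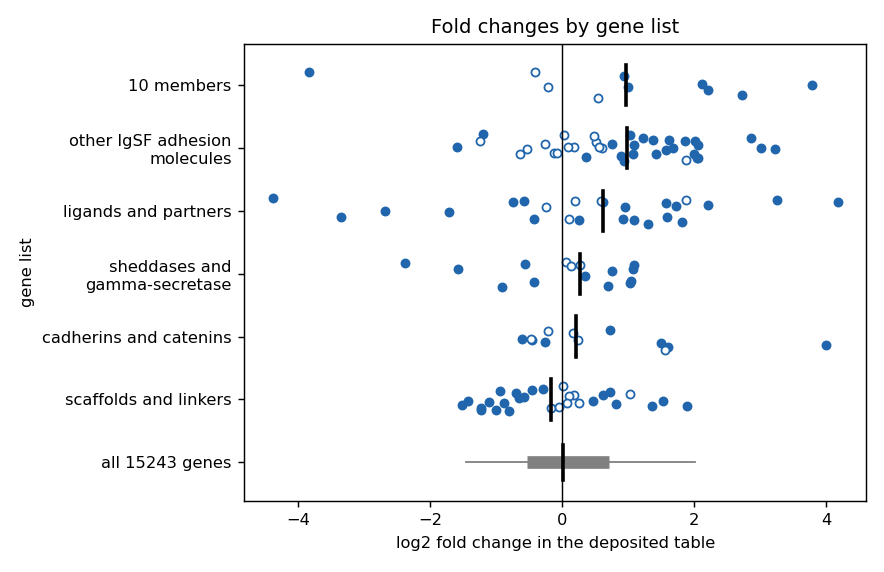
Log2 fold change in the authors' deposited table (x axis) for the 10 adhesion molecule genes and 5 lists of related genes, with 1 point per gene, filled where called at an adjusted p under 0.05, and a black line at each median. The bottom row shows all 15243 genes as the 5th to 95th percentile (thin line, −1.46 to 2.01), the 25th to 75th percentile (thick line, −0.54 to 0.71) and the median. Medians run from 0.98 for other IgSF adhesion molecules to −0.16 for scaffolds and linkers.

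The lung carcinoma line was set beside epithelial lung and blood cell markers by count, not per length. Of 10 epithelial lung markers, 6 had an entry, and the keratin genes KRT8 and KRT18 stood at mean normalized counts of 6396 and 6869 in the authors' deposited table. KRT7, NKX2-1, EPCAM and CDH1 were between 1.95 and 11.4 there, and NAPSA, SFTPB, SFTPC and KRT19 had no entry. Of 5 blood cell markers, 2 had an entry, CD14 at 2.92 and the lysosomal gene CD68 at 2213 in the authors' deposited table.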

How the data were processed

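The build hg38 and the tools featureCounts, STAR 2.7.10a and fastp 0.23.2 are named in the submitters' processing notes. The sources used here do not give their settings, the annotation, the use of strand, the footprint lengths kept or the model of the comparison. Reads shared by overlapping or similar genes can move a value through such settings. Per the file headers, the authors' deposited table holds a mean normalized count (a signal on a normalized scale), a log fold change and its SE (taken as log2), a statistic (a score) and p-values, raw and adjusted. The score equals the fold change over its SE, and the adjusted p is the Benjamini-Hochberg value of the deposited p-values, with a largest difference of 7.42e-06. The authors' marks follow from a log2 fold change beyond 1 together with p < 0.05 before adjustment, with 0 exceptions. If the log were natural, the difference of BCAM would be 44.1-fold and not 13.8-fold.

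A symbol that occurs more than once in the table was kept with its smaller p. Intervals of 95% are the fold change with 1.96 times its SE. Library depth is unknown, so the SE is the only error available, and no test was added. The 10 genes, the 5 lists of related genes and the 4 marker lists were chosen with earlier results of these data known. Named genes are the 10 genes, ALDH18A1, and from each list of related genes the 3 called higher and 3 called lower with the smallest p. Other partners and relatives (LAMA5, LAMA4, LGALS3, ITGAV, ITGA5, ITGB1, NRP1, ADAM10, ADAM17, EZR, RDX, PARD3, JAM2, CADM2, NCAPD3 and those said to be so) were named for their relation to a gene with values seen. MPDZ, ITGB2, LGALS1, WNT5A, FGFR1, MPP2, MPP3 and EPB41L3 were added from the lists of related genes, also with values seen. Gene positions and upstream sequences are those of RefSeq, GRCh38.p14. No coding lengths or protein sequences were at hand, so the planned footprint density and protein features were not computed. The code that adjusts p-values was checked on simulated fold changes, which does not test the counts, ranks or lists given here. The software was Python 3.11.15 (matplotlib 3.10.9, pandas 2.3.3, scipy 1.17.1, numpy 2.4.6).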

Additional observations from a re-analysis of the deposited data

How the results depend on the processing

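The settings change which genes are called, and only centring changes a fold change, so they say nothing about the stability of its sign. The count called lower was 1 under each of the 10 settings. The count called higher was 6, and it became 4 with a fold of at least 1 on the log2 scale or with the authors' marks (chosen after seeing the data), which drop NECTIN2 and NECTIN3. It was 5 with Bonferroni adjustment, which drops NECTIN1, and 5 with only genes of at least median abundance, where NECTIN1, CADM1 and L1CAM have no value. Centring on the median of all genes moved each fold change by 0.02, and the median of the 10 genes to 0.95.

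With a fold of at least 1 on the log2 scale, and equally with the authors' marks, scaffolds and linkers counted 3 higher and 6 lower, ligands and partners 4 lower, sheddases and gamma-secretase 4 higher and 2 lower, and cadherins and catenins 0 lower. With only genes of at least median abundance, other IgSF adhesion molecules counted 8 higher and 0 lower, ligands and partners 8 higher and 4 lower, sheddases and gamma-secretase 2 lower, and cadherins and catenins 0 higher. The fold and mark settings keep every gene and add a cutoff on fold size, while the abundance setting leaves genes out. Smaller counts are thus in part built in. At an unadjusted p under 0.05 the abundant IgSF genes also counted 0 lower and the abundant cadherins and catenins 1 higher, by the deposited p. Footprint density and protein features were not run. No paired analysis was possible because the table has no values per sample.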
